A study of Homo sapiens with 24 samples.

Results

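The neuroendocrine markers CHGA, SYP, ENO2, TUBB3 and NCAM1 and the transcriptional repressor REST were followed in LNCaP cells transfected with siRNAs against the long non-coding RNAs TAPIR-1 and TAPIR-2. These 6 genes, of 22692 genes that could be named on the arrays, were taken as the probes whose RefSeq accession belongs to one of them. They were represented by 8 probes, of 50599 probes on the array version used at 24 h and 58201 on the version used at 48 h, and NCAM1 had 3 of these probes. Neuroendocrine differentiation of prostate cancer cells is a concern in treatment, so the question was whether transcripts of this phenotype changed with these siRNAs.

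LNCaP is an established, androgen-responsive prostate cancer cell line. The cells were transfected by electroporation with si-A1, a Stealth siRNA duplex against TAPIR-1, with si-A2, a duplex against TAPIR-2, or with si-SCRL, a negative control duplex (labelled scramble), and total RNA was taken 24 h or 48 h later. Each siRNA and time point had 4 arrays, and 1 si-A2 array at 48 h was left out because its hybridisation was dim, so that 4 arrays per siRNA were used at 24 h and 4, 4 and 3 at 48 h. All groups come from the same parental line, 1 siRNA stands for each transcript, and no untransfected cells are among these arrays.

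Neuroendocrine cells store peptides in dense-core granules and carry neuronal surface and cytoskeletal proteins. Chromogranin A (CHGA) is a granule protein, synaptophysin (SYP) a membrane protein of synaptic vesicles, ENO2 the neuronal form of enolase in glycolysis, TUBB3 the neuronal beta-tubulin of microtubules, and NCAM1 (CD56) a cell adhesion molecule. REST is a zinc finger protein that binds the RE1 element and recruits the corepressors RCOR1 and SIN3A with histone deacetylases, and in non-neuronal cells it keeps many neuronal genes silent.

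On GRCh38.p14, CHGA lies on chromosome 14 from 92922664 to 92935285, SYP on chromosome X from 49187815 to 49200193, ENO2 on chromosome 12 from 6914580 to 6923697, TUBB3 on chromosome 16 from 89921925 to 89936097, NCAM1 on chromosome 11 from 112961420 to 113278436 and REST on chromosome 4 from 56907900 to 56935844. Antisense or other RNA genes overlap SYP (SYP-AS1), ENO2 (LOC124902868) and NCAM1 (NCAM1-AS1, NCAM1-AS2 and RNU7-187P). RefSeq promoter windows of 300 bases, from 250 before to 50 after a transcript start, were given for 5 of the 6 genes, 7 windows in all. Their G+C content lay between 65.3% and 79.3%, above the median of 58.7% over all 35116 windows. The windows of TUBB3 (the only member called), CHGA (the marker that was not detected) and REST (the repressor) are shown, and capitals mark matches, on either strand, to TCAGCAC and GGACAGC, cores of the left and the right part of the RE1 element, or to the TATA core TATAA.
TUBB3, chr16:89923092-89923391, plus strand: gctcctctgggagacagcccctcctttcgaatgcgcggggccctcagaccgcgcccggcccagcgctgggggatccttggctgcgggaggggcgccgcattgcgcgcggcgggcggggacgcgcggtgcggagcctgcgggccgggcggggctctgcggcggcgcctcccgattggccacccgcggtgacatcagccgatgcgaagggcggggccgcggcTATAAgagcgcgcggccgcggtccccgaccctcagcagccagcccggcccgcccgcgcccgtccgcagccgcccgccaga
CHGA, chr14:92922900-92923199, plus strand: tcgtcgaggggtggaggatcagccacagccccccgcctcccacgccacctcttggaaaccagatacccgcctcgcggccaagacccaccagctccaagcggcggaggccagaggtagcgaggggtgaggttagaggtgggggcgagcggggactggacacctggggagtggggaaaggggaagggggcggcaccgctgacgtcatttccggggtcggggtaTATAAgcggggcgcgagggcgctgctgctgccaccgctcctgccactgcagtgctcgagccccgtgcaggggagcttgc
REST, chr4:56908660-56908959, plus strand: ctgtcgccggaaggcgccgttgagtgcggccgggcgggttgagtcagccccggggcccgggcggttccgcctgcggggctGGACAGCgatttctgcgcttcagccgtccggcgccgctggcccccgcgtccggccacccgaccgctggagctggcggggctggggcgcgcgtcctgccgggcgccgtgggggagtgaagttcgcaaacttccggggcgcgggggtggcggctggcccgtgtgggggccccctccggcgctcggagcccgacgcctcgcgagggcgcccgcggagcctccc

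The TATA core stood in the downstream TUBB3 window and in the CHGA window, and 20.4% of all windows of this length hold it. The right RE1 core stood in the downstream REST window, and 6.03% of all windows hold it. The left core, held by 4.52% of all windows, was in none of the 7. The remaining windows, of SYP, of ENO2 and the upstream ones of TUBB3 and REST, held none of these motifs. A match of letters in this window is a description and says nothing of binding.

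Median processed intensities ran from 24.4 to 57.2 on the 24 h arrays and from 20.37 to 32.25 on those of 48 h, and 58.5% to 71.7% and 60.3% to 66.5% of their spots were well above background, the flag by which the scanner software marks a detected spot. The array left out had a median intensity of its bright corner spots of 5032, against 386700 to 492000 on the others of 48 h. The lowest correlation with arrays of the same group among those used at 24 h was that of si-SCRL replicate 3 (r = 0.961, against up to 0.983), which also had the highest MAP2 and RCOR1 of its group. All 10 luminal prostate markers, among them KLK3, KLK2, TMPRSS2, KRT8 and KRT18, were well above background on every array used. Of 3 basal markers none was so on all arrays at either time and KRT5 on none. Of 4 fibroblast markers none was so on all arrays at 24 h, while at 48 h DCN was so on all 11 and COL1A1, COL1A2 and COL3A1 on none. Probes of 4 leukocyte markers, among them PTPRC, CD3E and CD68, were well above background on all arrays at 24 h, and the 3 of them present at 48 h were too. The summed intensity of the leukocyte probes was 208 to 400.0 in si-SCRL, 333 to 428 in si-A1 and 359 to 387 in si-A2 at 24 h, and 245 to 514, 284 to 441 and 289 to 425 at 48 h. No probe carries the accession of TAPIR-1. Of the TAPIR-2 probes, 1 was present at both times. At 24 h its mean log2 intensity was 5.04 ± 0.20 (SD, n = 4) in si-SCRL, 4.64 ± 0.32 (n = 4) in si-A1 and 4.06 ± 0.74 (n = 4) in si-A2. The si-A2 arrays ran from 3.12 to 4.70 and the si-SCRL arrays from 4.81 to 5.28, with a difference of -0.98 (limma, adjusted p = 0.23). At 48 h its mean was 4.64 ± 0.58 (n = 4), 4.82 ± 0.81 (n = 4) and 4.68 ± 0.90 (n = 3), and the groups overlapped. The second TAPIR-2 probe of the 48 h arrays was well above background on none of them.

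Of the 8 probes, those of TUBB3, ENO2 and REST were well above background on all 23 arrays. SYP was so on most arrays, the first NCAM1 probe on none at 24 h and on 7 of 11 at 48 h, and CHGA on none. Testing required a signal more than 3 SDs over the average negative control spot on 3 or more arrays, which 5 of the 8 probes did at 24 h and 6 at 48 h. To be called changed, a probe needed an adjusted p below 0.01 and a log2 fold change of at least 0.5 in either direction. By this rule 1 member probe was called in 1 comparison, TUBB3 after si-A1 at 48 h, among 8 comparisons of siRNAs or of time points. All values are log2 intensities after quantile normalization within a time point, and all fold changes are differences of these. In RNA of whole cultures, fewer cells that carry a transcript and less of it per cell cannot be told apart.

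TUBB3, the neuronal beta-tubulin, was the only member called in any comparison, and at 48 h it was higher with both TAPIR siRNAs than with si-SCRL on every array used. At 24 h its log2 intensity was 9.04, 8.93, 8.75 and 8.83 in the 4 si-SCRL arrays and 9.49, 9.35, 9.50 and 9.74 in the 4 si-A1 arrays. The si-A2 arrays gave 9.13, 8.88, 9.06 and 9.26. Every si-A1 array lay above every array of both other groups, while si-A2 overlapped si-SCRL. The log2 fold change after si-A1 was 0.63 (95% confidence interval 0.33 to 0.94, adjusted p = 0.0404, limma), which was not called, and that after si-A2 was 0.20 (-0.11 to 0.50, adjusted p = 0.646). Of all probes tested, si-A1 lay wholly above si-SCRL for 3.92% and wholly above si-A2 for 4.93%. The direct difference, si-A2 against si-A1, was -0.44 (-0.74 to -0.14, adjusted p = 0.196).

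At 48 h the TUBB3 values were 6.48, 7.79, 7.15 and 6.42 in si-SCRL, 9.16, 9.10, 8.18 and 8.38 in si-A1, and 8.46, 7.84 and 7.89 in the 3 si-A2 arrays. Both TAPIR siRNA groups lay wholly above si-SCRL, si-A1 by the larger margin. TUBB3 rose after si-A1 by 1.74 on the log2 scale (95% confidence interval 1.12 to 2.36), which is 3.35-fold (2.18 to 5.15), with an adjusted p of 0.00382 (limma). In this comparison 6.11% of all 45194 probes were called, 2.13% were called higher, and 6.75% had groups that did not overlap with si-A1 higher. Of the 6 member probes tested 1 was called. The si-A2 difference was 1.20 (0.52 to 1.88), or 2.30-fold (1.44 to 3.67), and it was not called (adjusted p = 0.0762). In that comparison 0.445% of all probes were called and groups did not overlap, with si-A2 higher, for 4.03%. Between the siRNAs the difference was -0.54 (-1.22 to 0.13, adjusted p = 0.384).

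The TUBB3 difference had the same direction on both slides of each time point. After si-A1 it was 0.44 and 0.83 on the slides of 24 h and 1.99 and 1.49 on those of 48 h. The call at 48 h was lost without a slide term (adjusted p = 0.0116), with only the compared groups in the fit (0.0132), with the dim array kept (1.00) and without si-A1 replicate 1, 2 or 4 or si-SCRL replicate 4 (0.0130 to 0.0155), although the fold change stayed between 1.45 and 1.95 when any array was left out. With the dim array kept, the si-A2 difference at 48 h turned to -0.50, and on that array TUBB3 was not well above background. At 24 h the si-A1 difference was called without background correction (0.56, adjusted p = 0.00836). The probe sequence was not used here, so signal from other beta-tubulin transcripts was not tested.

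**Figure D1:**
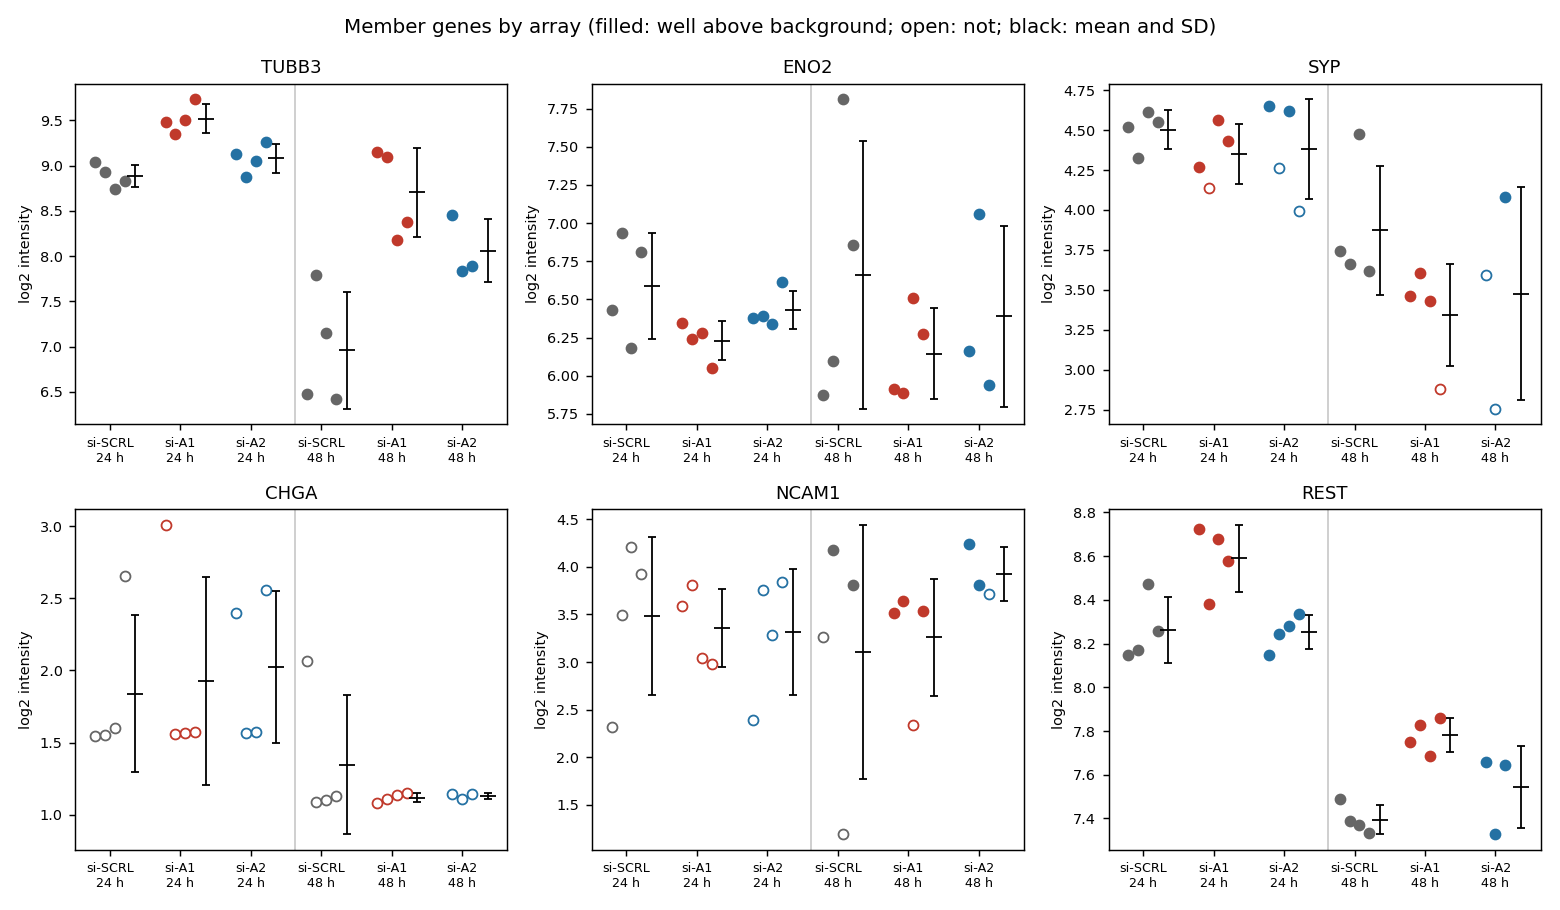
Log2 intensity of the 6 genes on each array used, by siRNA and time point, for NCAM1 with probe A_23_P1740; filled points are well above background, open points are not, and black bars give the mean and SD of a group. TUBB3 lies higher in si-A1 than in si-SCRL on all arrays of both time points, CHGA is open throughout, and the axes differ between panels.

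The effect on TUBB3 was larger at 48 h than at 24 h by 1.14 (0.50 to 1.78, adjusted p = 0.0887) for si-A1 and by 1.05 (0.38 to 1.71, adjusted p = 0.364) for si-A2, and neither change was called. In these comparisons of time points 0.159% and 0.0335% of 35820 probes were called, and none of the 5 member probes was, although TUBB3 alone had an unadjusted p below 0.05 in both, as 13.3% and 7.56% of all probes did. The array version changed with the time point, so that each difference compares effects measured within a version.

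REST itself, the repressor, differed little. At 24 h its log2 intensity was 8.15, 8.17, 8.47 and 8.26 in si-SCRL, 8.73, 8.38, 8.68 and 8.58 in si-A1, and 8.15, 8.25, 8.28 and 8.34 in si-A2. The si-A1 arrays lay above all si-A2 arrays and overlapped si-SCRL by 1 array pair of 16. The difference of si-A1 from si-SCRL was 0.33 (0.06 to 0.60, adjusted p = 0.268) and that of si-A2 was -0.01 (-0.28 to 0.26, adjusted p = 0.985). That of si-A2 from si-A1 was -0.34 (-0.61 to -0.07, adjusted p = 0.283), and 4.93% of all probes had groups that did not overlap in that direction.

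At 48 h REST was at 7.49, 7.39, 7.37 and 7.33 in si-SCRL, 7.75, 7.83, 7.69 and 7.86 in si-A1, and 7.66, 7.33 and 7.64 in si-A2. All si-A1 arrays were above both other groups. The difference of si-A1 from si-SCRL was 0.39 (0.17 to 0.60), or 1.31-fold (1.12 to 1.52), and was not called (adjusted p = 0.0273). Groups did not overlap, with si-A1 higher, for 6.75% of the probes. After si-A2 it was 0.16 (-0.07 to 0.40, adjusted p = 0.468). Between the siRNAs it was -0.22 (-0.46 to 0.01, adjusted p = 0.293), and 7.18% of probes had groups apart in that direction. The si-A1 difference was 0.35 on the first slide and 0.42 on the second.

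ENO2, the neuronal enolase, was well above background everywhere and no difference was called. At 24 h it was at 6.43, 6.93, 6.18 and 6.81 in si-SCRL, between 6.05 and 6.35 in si-A1 and between 6.34 and 6.61 in si-A2. The differences were -0.36 (-0.74 to 0.03, adjusted p = 0.418) after si-A1 and -0.16 (-0.54 to 0.23, adjusted p = 0.778) after si-A2. At 48 h si-SCRL spread over 5.88, 6.10, 7.81 and 6.86, with the 2 high values on the second slide. The differences were -0.52 (-1.22 to 0.19, adjusted p = 0.326) and -0.40 (-1.17 to 0.37, adjusted p = 0.595), and that after si-A1 was -0.09 on the first slide and -0.95 on the second.

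SYP, the vesicle protein, was low. It was well above background on 4 si-SCRL, 3 si-A1 and 2 si-A2 arrays of 4 each at 24 h, where the group means were 4.50 ± 0.12 (SD, n = 4), 4.35 ± 0.19 (n = 4) and 4.38 ± 0.31 (n = 4). The differences from si-SCRL were -0.15 (-0.53 to 0.23, adjusted p = 0.727) and -0.12 (-0.50 to 0.26, adjusted p = 0.83). At the later time it was detected on 4 of 4, 3 of 4 and 1 of 3 arrays, at 3.74, 3.66, 4.47 and 3.62 in si-SCRL, 3.46, 3.60, 3.43 and 2.88 in si-A1, and 3.59, 2.76 and 4.08 in si-A2. All si-A1 arrays lay below all si-SCRL arrays, with 3.60 the highest si-A1 and 3.62 the lowest si-SCRL value, and 8.83% of probes had groups apart in this direction. The difference of -0.53 (-1.24 to 0.18, adjusted p = 0.311) was not called, and that after si-A2 was -0.39 (-1.16 to 0.38, adjusted p = 0.611). A rise of SYP intensity by more than 0.18 after si-A1 or 0.38 after si-A2 at 48 h was outside these intervals. SYP was detected on 1 of 3 si-A2 arrays, and the si-A1 difference was -0.29 without si-SCRL replicate 3. A larger rise of the transcript is therefore not excluded. The si-A1 difference at 48 h was -0.17 on the first slide and -0.89 on the second.

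CHGA was well above background on 0 of the 23 arrays. Its probe ranged from 1.55 to 3.01 at 24 h and from 1.08 to 2.07 at 48 h, exceeded the negative control threshold on 2 of 12 and 0 of 11 arrays, and was not tested. The 2 arrays were 1 of si-A1 and 1 of si-A2. Whether CHGA changed below this limit cannot be seen with these arrays.

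The 3 NCAM1 probes, for the adhesion molecule, were near the limit too. A_23_P1740 had means of 3.48 ± 0.83, 3.35 ± 0.41 and 3.32 ± 0.67 (SD, n = 4 each) at 24 h for si-SCRL, then si-A1, then si-A2, none of these arrays being well above background. At 48 h it was at 3.26, 4.17, 1.19 and 3.81 in si-SCRL, 3.51, 3.64, 2.34 and 3.54 in si-A1, and 4.24, 3.81 and 3.71 in si-A2. The difference after si-A1 was 0.15 (-1.03 to 1.33, adjusted p = 0.892) and that after si-A2 was 0.95 (-0.34 to 2.24, adjusted p = 0.431), and si-A2 lay above si-A1 without overlap, as 7.87% of probes did. A_33_P3363804 was well above background on 1 array of 48 h, si-SCRL replicate 3, and A_33_P3363799 on 1 of 24 h, si-SCRL replicate 4. The former had means of 3.42 ± 1.70 (SD, n = 4) in si-SCRL, 1.90 ± 0.93 (n = 4) in si-A1 and 1.44 ± 0.27 (n = 3) in si-A2 at 48 h. Neither difference from si-SCRL was called (limma, adjusted p = 0.234 for si-A1 and 0.242 for si-A2). No fold is given, since si-SCRL itself was well above background on 1 array only. Where they were not tested, A_33_P3363804 lay between 1.66 and 2.39 at 24 h and A_33_P3363799 between 1.01 and 1.33 at 48 h, all below detection.

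**Figure D2:**
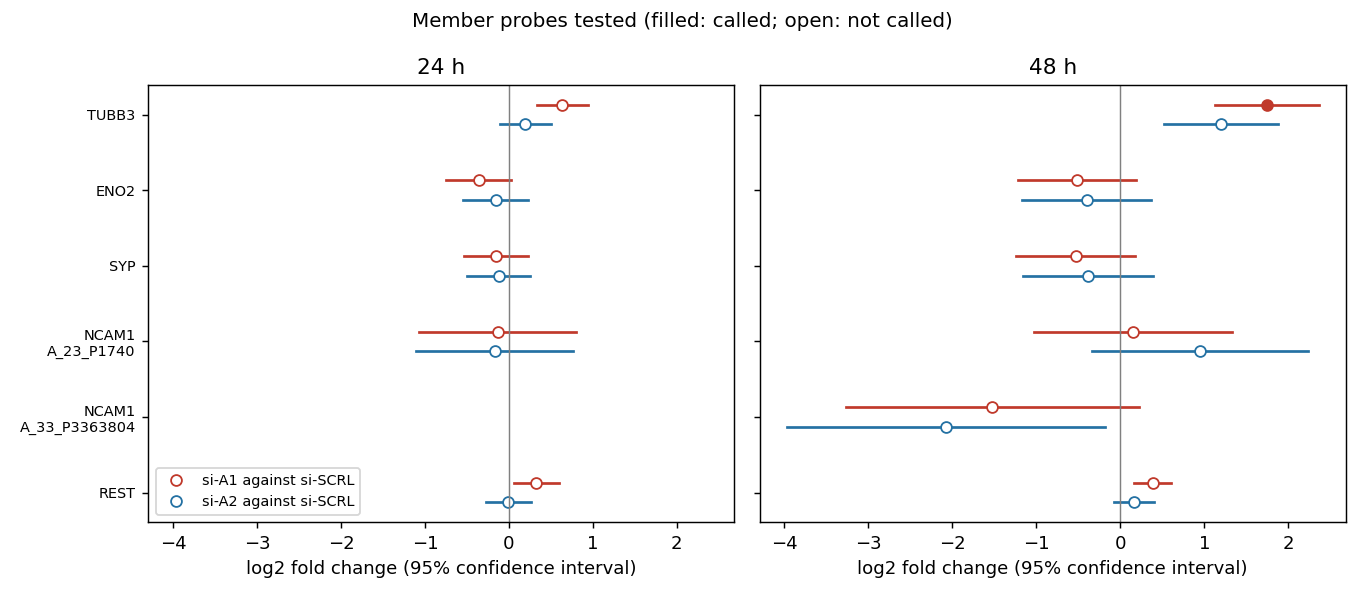
Log2 fold change against si-SCRL of each member probe that was tested, with its 95% confidence interval, at 24 h (left) and 48 h (right), red for si-A1 and blue for si-A2. TUBB3 after si-A1 at 48 h is the filled, called point at 1.74, and the NCAM1 intervals are the widest. NCAM1 probe A_33_P3363804 was well above background on 1 array, so its points compare levels at background.

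No member probe was called in the other comparisons. Of those tested with limma, an unadjusted p below 0.05 was reached at 24 h by 2 of 5 after si-A1, by 0 of 5 after si-A2 and by 2 of 5 between the siRNAs, and over all probes by 13%, 11.7% and 11.4%. At 48 h it was reached by 2 of 6 after si-A1, by 2 of 6 after si-A2 and by 0 of 6 between the siRNAs, and over all probes by 28.8%, 17.7% and 19.1%. Of all probes 1.1%, 0.928% and 0.366% were called in the comparisons of 24 h and 1.45% between the siRNAs at 48 h. The comparisons of one time point share their si-SCRL arrays.

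Beside the members, 3 sets of related genes were read, each gene by its brightest tested probe. Of 25 neuroendocrine and neuronal products, 17 could be tested at each time and 8 were detected on no array at 24 h, 9 at 48 h. None was called at 24 h, where the median log2 fold change of the set was 0.16 for si-A1 and 0.07 for si-A2, against 0.04 for all probes in both. The highest after si-A1 was SCG3, a granin of dense-core granules, at 0.98 (adjusted p = 0.369), and the lowest STMN2, a microtubule regulator of growing axons whose probe was well above background on 1 of 12 arrays, so that no difference is given. After si-A2 the extremes were NTS, the neuropeptide neurotensin, and SCG2, well above background on 4 and 3 of 12 arrays (adjusted p = 0.734 and 0.433).

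At 48 h 1 of the 17 was called after si-A1 and 1 after si-A2. Of all probes, 6.11% and 0.445% were called in either direction. The set medians were 0.26 and 0.17, against 0.05 and 0.00 for all probes. MAP2, a microtubule-associated protein of dendrites, was at 4.33, 4.59, 4.08 and 4.49 in si-SCRL, 4.65, 4.83, 5.0 and 5.18 in si-A1, and 5.93, 5.98 and 6.45 in si-A2. The 3 groups did not overlap, and si-A2 stood highest. Of all probes at 48 h, si-A2 lay wholly above si-SCRL for 4.03% and wholly above si-A1 for 7.87%. For 6.75%, si-A1 lay wholly above si-SCRL. MAP2 rose after si-A2 by 1.72 (1.31 to 2.13, adjusted p = 0.00403), a 3.30-fold difference, and lay above si-A1 by 1.18 (0.77 to 1.59, adjusted p = 0.00845). After si-A1 it differed by 0.54 and was not called (adjusted p = 0.0573). The MAP2 call after si-A2 held in 14 of 17 alternative settings and in 2 of 11 with an array left out, with no change of direction. It was lost with the replicate number as a block, with only the compared groups in the fit and with the dim array kept, where the difference was 0.46. Of the arrays, only leaving out si-A1 replicate 1 or 4 kept it. At 24 h MAP2 overlapped in all groups (0.51 after si-A2, adjusted p = 0.682), where si-SCRL replicate 3 was at 7.34 and the other si-SCRL arrays between 5.06 and 5.34.

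The second gene called, SCG2, a secretogranin of dense-core granules, was well above background on none of the 48 h arrays, with means of 1.85 ± 0.24 (SD, n = 4) in si-SCRL and 2.92 ± 0.24 (n = 4) in si-A1 (adjusted p = 0.00671), so no fold is given. Its call held in 12 of 15 alternative settings and in 4 of 11 with an array left out, and was lost with the replicate block. The lowest of the set at 48 h were NEFM, a neurofilament detected on 6 of 11 arrays, at -0.69 after si-A1 (adjusted p = 0.462), and after si-A2 VGF, a granin-like precursor detected on no array, for which no difference is given.

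The 21 corepressors and regulators of REST were mostly abundant, 18 being well above background on all arrays at 24 h and 17 at 48 h. None was called at 24 h and 2 of 19 fell after si-A1 at 48 h, where 6.11% of all probes were called in either direction. HDAC2, a histone deacetylase, was at 9.76, 9.97, 9.56 and 9.46 in si-SCRL and 8.97, 8.84, 8.57 and 8.82 in si-A1, and it fell by 0.89 on the log2 scale (interval -1.12 to -0.65, adjusted p = 0.000805). It was at 9.58, 9.48 and 9.60 in si-A2, within the si-SCRL range and above si-A1 by 0.79 (adjusted p = 0.00629). RCOR1, the corepressor CoREST, was at 5.48, 5.37, 5.45 and 5.10 in si-SCRL, 4.27, 4.81, 3.64 and 3.76 in si-A1, and 4.86, 4.65 and 4.97 in si-A2. It fell after si-A1 by 1.23 on the log2 scale (interval -1.68 to -0.79, adjusted p = 0.00404), and the si-A2 difference was -0.46 (adjusted p = 0.303). The HDAC2 decrease stayed called whichever of the 11 arrays was left out. The RCOR1 decrease was called with 5 of 11 left out and was lost without si-A1 replicate 1, 3 or 4 or si-SCRL replicate 1, 3 or 4. It was not called with the replicate number as a block, without a slide term or with the dim array kept. Without background correction or with normexp correction it was not called either. Over all these settings the RCOR1 difference ran from -1.42 to -0.32. The calls of MAP2 and HDAC2 between the siRNAs each held with 1 of 11 arrays left out and were lost with the block. The highest of the set after si-A1 was SIN3B, a corepressor scaffold, at 0.59 (adjusted p = 0.0473), and the set median was -0.04 against 0.05 for all probes. After si-A2 the lowest was USP7, a deubiquitinase, at -0.75 (adjusted p = 0.296), and the highest SIN3B at 0.29 (adjusted p = 0.455). At 24 h the extremes after si-A1 were RCOR1 at -1.22 (adjusted p = 0.13) and RCOR2, detected on 1 of 12 arrays, and after si-A2 RCOR1 at -0.79 (adjusted p = 0.405) and SIN3B at 0.66 (adjusted p = 0.518).

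**Figure D3:**
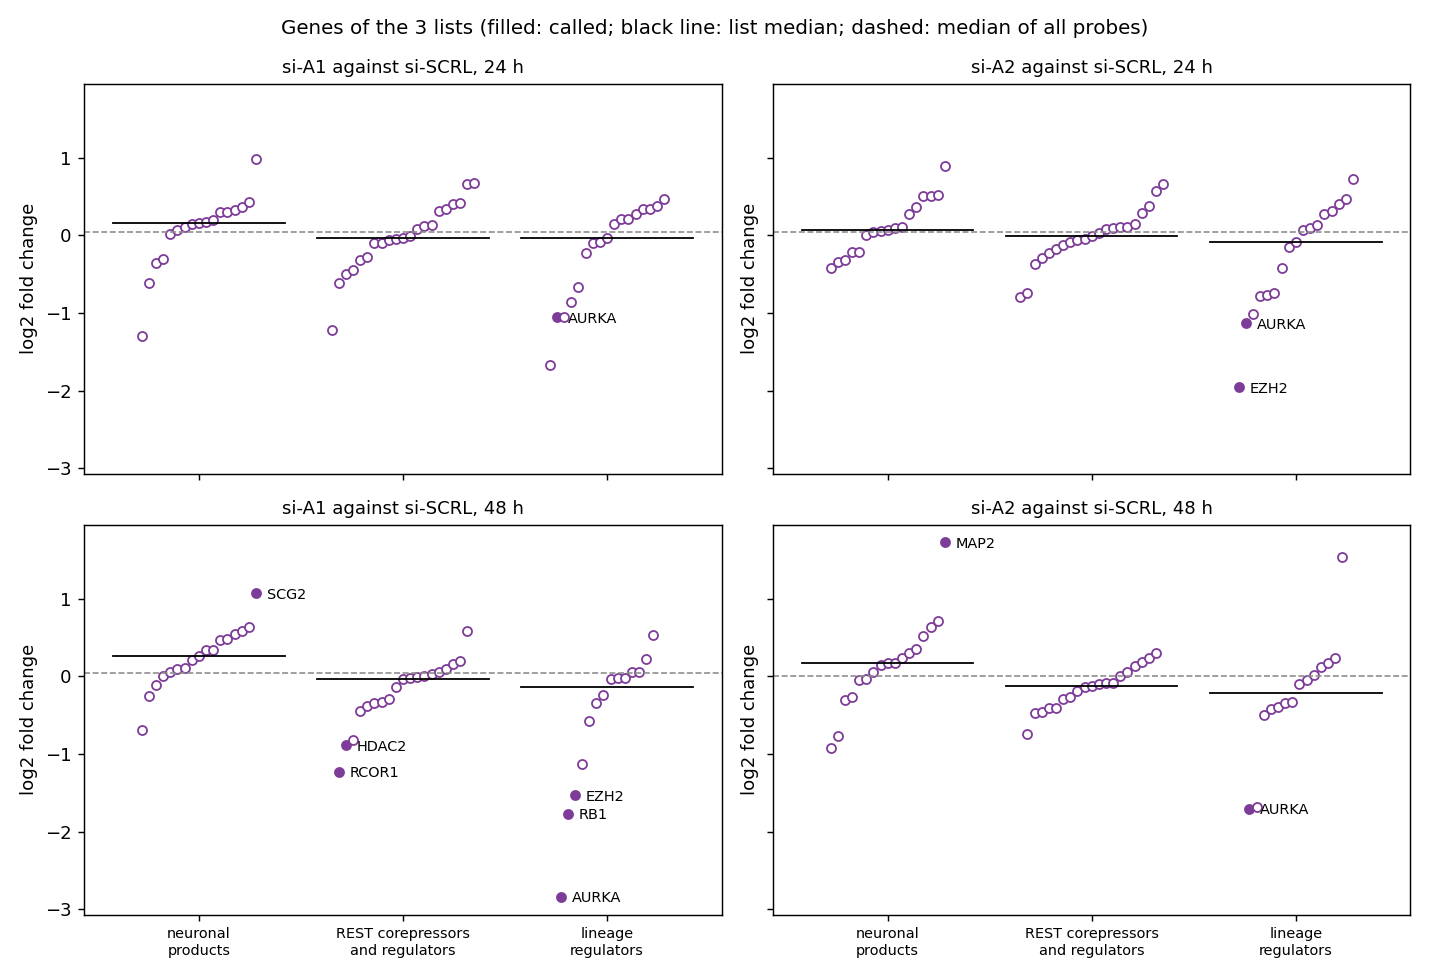
Log2 fold change against si-SCRL of every tested gene of the 3 sets, 1 point per gene, by siRNA and time point; filled points are called and named, black lines are set medians and the dashed line is the median of all probes. Points include probes not above background, such as SCG2, EZH2 and RB1. The set medians lie between -0.22 and 0.26, and the lineage regulator AURKA at -2.84 after si-A1 at 48 h is the lowest point.

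Of 23 regulators of the neuroendocrine lineage, 17 were tested at 24 h and 14 at 48 h. AURKA, the mitotic kinase Aurora A, which is also known to stabilise N-Myc, fell with both siRNAs at both times. At 48 h it was at 9.07, 8.89, 8.93 and 8.90 in si-SCRL, 5.97, 6.38, 5.83 and 6.24 in si-A1, and 7.64, 6.81 and 7.17 in si-A2. The differences were -2.84 (-3.21 to -2.47, adjusted p = 5.11e-05) and -1.71 (-2.11 to -1.30, adjusted p = 0.00403), and at 24 h -1.05 (adjusted p = 0.00374) and -1.13 (adjusted p = 0.00238). With an array left out, the si-A1 call held in 11 of 11 cases at 48 h and in 6 of 12 at 24 h, and the si-A2 call in 2 of 11 and 9 of 12. With the replicate number as a block the si-A2 call at 48 h was lost. Between the siRNAs AURKA was higher in si-A2 by 1.14 at 48 h (adjusted p = 0.00958), a call that was also lost with the block. At 24 h 1 of the set was called after si-A1 and 2 after si-A2, and at 48 h 3 and 1, all lower. Of all probes, 1.1%, 0.928%, 6.11% and 0.445% were called in either direction.

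EZH2, the histone methyltransferase of Polycomb, was called lower after si-A2 at 24 h and after si-A1 at 48 h. Its probe was not well above background in the si-A1 or si-A2 arrays. At 24 h it was so on 1 of 4 si-SCRL arrays, so no fold is given. At 48 h si-SCRL had a mean of 3.70 ± 0.57 (SD, n = 4) and si-A1 2.17 ± 0.60 (n = 4) (limma, adjusted p = 0.00614). The groups overlapped, with si-SCRL replicate 3 at 2.85, not well above background, and si-A1 replicate 2 at 2.92. Set against the lowest detected signal, the si-SCRL mean, which includes that replicate 3, was 1.41-fold higher. RB1, the retinoblastoma protein, was called lower after si-A1 at 48 h (limma, adjusted p = 0.000658). Its probe was well above background on 1 of 4 si-SCRL arrays and 0 of 4 si-A1 arrays, so no fold is given. The EZH2 call at 48 h held in 9 of 17 alternative settings and in 4 of 11 with an array left out. It was lost with the replicate block. The RB1 call after si-A1 held in 13 of 16 and in 11 of 11. RB1 was called higher in si-A2 than in si-A1 at 48 h, where neither group was well above background. With the dim array kept, no gene of the 3 sets was called at 48 h. At 24 h the extremes after si-A1 were ONECUT2, a homeobox factor, at 0.46 (adjusted p = 0.518) and RB1, and after si-A2 SOX2, a stem cell factor, and EZH2, these last 3 being well above background on at most 1 of 12 arrays, so that no difference is given. The set medians were -0.031 and -0.088 at 24 h and -0.14 and -0.22 at 48 h, after si-A1 and si-A2.

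**Figure D4:**
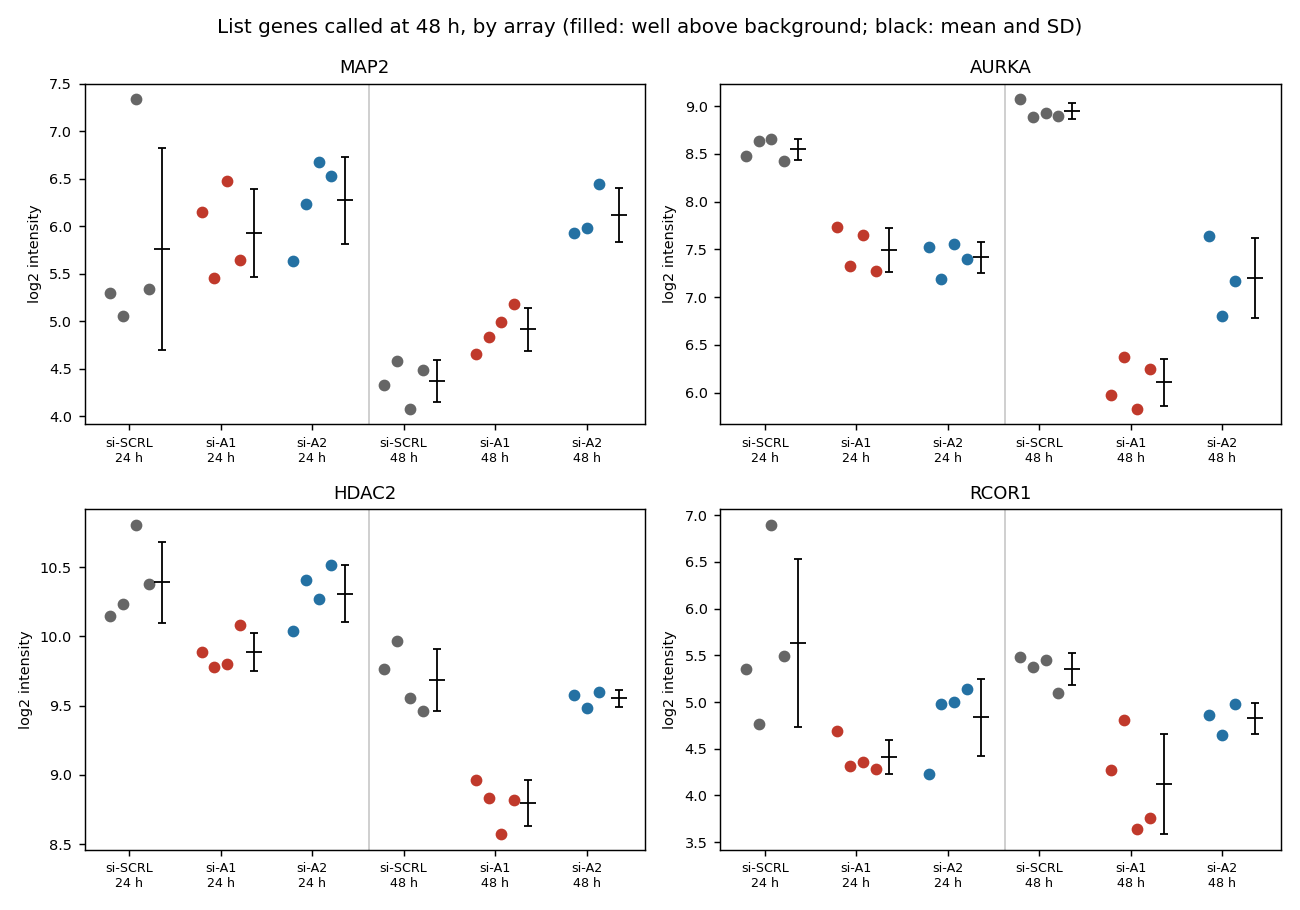
Log2 intensity on each array used of MAP2, AURKA, HDAC2 and RCOR1, by siRNA and time point; all points are well above background, and black bars give the mean and SD of a group. At 48 h MAP2 is highest in si-A2 (5.93 to 6.45), while HDAC2, RCOR1 and AURKA are lower in si-A1 than in si-SCRL on every array. Of all probes at 48 h, 8.83% had si-A1 wholly below si-SCRL.

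Luminal markers were read beside the TUBB3 call after si-A1 at 48 h. KLK2, a kallikrein induced by androgen, fell by 1.07 (adjusted p = 0.000972) with 1 probe and differed by 0.38 with the other (adjusted p = 0.107). The summed intensity of the 10 luminal markers was 35180 to 53950 in si-SCRL, 29810 to 35770 in si-A1 and 35010 to 41880 in si-A2. The fibroblast marker DCN, a proteoglycan, was 0.50 above si-SCRL in si-A1 at 48 h (adjusted p = 0.0703) and 0.74 above it in si-A2 (adjusted p = 0.0633), neither called, and the summed intensity of the 4 fibroblast markers was 22.7 to 26.0 in si-SCRL, 29.3 to 34.6 in si-A1 and 29.0 to 46.4 in si-A2. The part of these markers in the TUBB3 and MAP2 differences was not tested.

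For the 3 members detected on all arrays, the genes with the most similar pattern were sought as the smallest root mean square difference of centred log2 intensities over the 12 arrays of 24 h, among 13563 genes. TUBB3 was closest to BCL11B, SEC14L1 and DHX29 (0.124, 0.137 and 0.138, against a median of 0.366 over all these genes). REST was closest to MUS81, PEX6 and NUS1 (0.0875, 0.0877 and 0.0882, median 0.297), and ENO2 to BPHL, MLEC and AGFG2 (0.099, 0.109 and 0.111, median 0.347). Over the 11 arrays of 48 h, which were not used for the choice, the distances of the TUBB3 neighbours were 0.868, 0.811 and 0.873, near the median of 0.911. Those of REST were 0.284, 0.228 and 0.268 (median 0.318) and those of ENO2 0.529, 0.419 and 0.52 (median 0.626).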

How the data were processed

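Expression was measured in LNCaP cells on one-colour Agilent arrays, 12 at 24 h and 12 at 48 h, and 23 were used. The authors deposited scanner output per array, which gives each spot's background-subtracted intensity (linear, the processed signal) and its median and local background intensities. Log2 values for each array version were deposited as well, quantile-normalized by the authors across spots. Per the labels, R 3.4.3 and limma 3.34.8 were used. Samples were grouped by siRNA, time and replicate from their labels. The study's methods describe the 4 arrays of a group as biological replicates.

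Log2 processed intensities were quantile-normalized within a time point, spots flagged as outliers were set aside and repeated spots of a probe averaged. Probes were named by matching RefSeq accessions to GRCh38.p14, which succeeded for 29033 (57.4%) and 31104 (53.4%). Probes above the mean plus 3 SDs of the negative controls on at least 3 arrays were tested, 44849 and 45194, in R 4.3.3 with limma 3.58.1 (with statmod 1.5.0, and data.table in version 1.17.8). All 3 siRNAs were fitted together per time point, adding a slide effect, and p-values were adjusted after Benjamini-Hochberg over all probes tested. Changes of an effect between times were fitted over probes of both array versions, normalized together. For EZH2 at 48 h the mean of the brighter group was set against the lowest detected signal. Data were simulated with the probes and spreads of the real arrays and independent normal noise. For each size of change, 66 or 67 probes were shifted in si-A1. A log2 change of 2 was called for 71.2% of these probes at 24 h and 68.2% at 48 h. One of 1 was called for 22.4% and 31.3%, and one of 0.5 for 1.49% and 0%. In the real si-A1 comparisons 494 and 2761 probes were called. The adjusted p depends on how many probes change, so these shares need not hold for the real data. The number of arrays limits the precision, with a median residual SD of 0.325 at 24 h and 0.233 at 48 h.

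Arrays of the same replicate number deviated together at 48 h (10 of 10 pairs with r above 0.1, median 0.217), as did those of other numbers on the same slide (median 0.189), and not at 24 h (3 of 12 pairs). Pairs of other numbers on different slides had a median of -0.197 at 48 h. A pairing by replicate number and a shared slide, which the main fit holds, can therefore not be told apart here. The replicate block is read as an alternative setting only, and the labels do not say what a number shares.

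The members, the gene sets and the tests were chosen with earlier results of these data known. The text names every member probe, each called gene of the sets, and most of the highest and lowest tested genes of each set, with no difference where the probe was at background. The other genes of the sets and marker lists enter counts, medians and sums, and their single results are not reported here. Alternatives were another scaling, background correction, filter, slide or replicate term, probe rule or threshold, the authors' log2 values, and each array left out. Normexp correction was run on the median spot signal, since no mean signal was among the columns used.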

Additional observations from a re-analysis of the deposited data

Results flagged for a closer look

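In 40 groups of 4 arrays of the member probes, 7 had an array far from the other 3, and chance flags about 1 in 20 such groups. Most were dim spots. CHGA stood apart at 2.65 in si-SCRL replicate 4 and at 3.01 in si-A1 replicate 1 at 24 h, and at 2.07 in si-SCRL replicate 1 at 48 h, on none of which it was well above background. NCAM1 probe A_23_P1740 was low at 2.34 in si-A1 replicate 3 at 48 h. Probe A_33_P3363799 of NCAM1 was at 3.71 in si-SCRL replicate 4 at 24 h, where it was well above background, and at 1.33 in si-A1 replicate 3 at 48 h. SYP was at 4.47 in si-SCRL replicate 3 at 48 h, where the other 3 si-SCRL arrays were between 3.62 and 3.74.

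On the dim si-A2 array left out at 48 h, SYP was at 5.65 and well above background, above the highest si-SCRL array at 4.41 when all 12 arrays were normalized together. Before normalization its processed signal there was 21.25, within the 12.28 to 25.71 of the si-SCRL arrays. The correlation of the dim array with the arrays of its group was 0.654. On the same array TUBB3 was at 1.52 and ENO2 at 0.99, neither of them well above background, and REST at 5.66 against 7.19 to 7.35 in si-SCRL.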

How the results depend on the processing

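Of 566 recomputed log2 fold changes of member probes under an alternative setting, 546 kept their direction and their side of the threshold, and with 1 array left out 576 of 608 did. The counts of called member probes stayed within 1.5 times in 103 of 109 alternatives and 111 of 115 cases with an array left out, and those of the sets in 69 of 99 and 31 of 69. Counts of 0 that stayed at 0 enter these totals, and only 1 comparison had a member called. That call, TUBB3 after si-A1 at 48 h, was lost in 3 of 17 alternatives and in 4 of 11 cases with an array left out. Dim probes limit what can be seen, since CHGA and most NCAM1 spots were not above background, and the interquartile filter leaves several members without a value. The causes of the changes below were not tested.

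Member probes called after si-A1 were 1 instead of 0 at 24 h with an adjusted p below 0.05, no background correction or normexp, in each case TUBB3. At 48 h they were 0 instead of 1 with no slide term, with only the groups compared and with si-A2 replicate 2 kept, and 0 to 1 with an array left out. With the replicate block the TUBB3 call was kept (adjusted p = 0.0088), and the block changed no other call of a member.

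Set genes called after si-A1 at 24 h (1) were 2 with an adjusted p below 0.05, the filter on detected probes or no filter on low values, 0 with the interquartile filter or only the groups compared, and 0 to 1 with an array left out. After si-A1 at 48 h (6) they were 2 with no background correction, 2 with normexp, 3 with the replicate block, 0 with si-A2 replicate 2 kept, and 3 to 6 with an array left out. After si-A2 at 24 h (2) they were 1 with the filter on detected probes, the interquartile filter, no background correction, normexp, only the groups compared or the replicate block, and 0 to 2 with an array left out. After si-A2 at 48 h (2) they were 0 with only the groups compared, the replicate block or si-A2 replicate 2 kept, and 0 to 2 with an array left out. Between the siRNAs at 24 h (0) they were 1 with an adjusted p below 0.05, the filter on detected probes, no background correction, no filter or normexp, and 0 to 1 with an array left out. Between the siRNAs at 48 h (4) they were 2 with 75th percentile scaling, 1 with the interquartile filter, no filter or no slide term, 0 with only the groups compared, the replicate block or si-A2 replicate 2 kept, and 0 to 1 with an array left out.

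With si-A2 replicate 2 kept, differences at 48 h turned to -0.50 for TUBB3, -0.29 for REST and 0.17 for SYP in si-A2 against si-SCRL, and to -1.08 for ENO2, 0.11 for NCAM1 probe A_33_P3363804 and -0.064 for MAP2 in si-A2 against si-A1. With 75th percentile scaling at 24 h they turned to 0.033 for NCAM1 probe A_23_P1740 after si-A1, 0.035 for REST after si-A2 and -0.077 for SYP between the siRNAs. Probe A_23_P1740 also turned, without background correction and with normexp, to -0.073 and -0.055 after si-A1 at 48 h, to 0.0034 and 6e-04 after si-A2 at 24 h, and to 0.0115 and 0.0147 between the siRNAs at 24 h.

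With an array left out, differences that changed sign ranged as follows, none of them called. REST after si-A2 at 24 h ranged from -0.035 to 0.046. ENO2 between the siRNAs at 48 h ranged from -0.10 to 0.47, and its change of effect with time from -0.30 to 0.15 for si-A1 and from -0.44 to 0.14 for si-A2. SYP ranged from -0.24 to 0.042 after si-A2 at 24 h, from -0.090 to 0.19 and from -0.17 to 0.50 between the siRNAs at 24 h and 48 h, and from -0.43 to 0.11 for the si-A2 effect with time. NCAM1 probe A_23_P1740 ranged from -0.51 to 0.080 after si-A1 and from -0.55 to 0.12 after si-A2 at 24 h, from -0.26 to 0.25 between the siRNAs at 24 h, from -0.42 to 0.58 after si-A1 at 48 h, and from -0.17 to 0.81 for the si-A1 effect with time.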

Other observations

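The si-SCRL array of replicate 3 at 48 h had the highest value of its group for 3 of the 5 markers, ENO2 at 7.81, SYP at 4.47 and NCAM1 probe A_33_P3363804 at 5.37, and the lowest for NCAM1 probe A_23_P1740 at 1.19. Its TUBB3 (7.15) and REST (7.37) lay within the range of the other si-SCRL arrays. Its correlation with the arrays of its group was 0.977, within the range of 0.966 to 0.981 over the arrays used at 48 h. Without it the ENO2 difference after si-A1 at 48 h was -0.22 instead of -0.52, and that of SYP -0.29 instead of -0.53.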
